A study of Arabidopsis thaliana with 24 samples.

Results

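The comparison described here sets whole fc2 seedlings against whole flu seedlings of Arabidopsis thaliana after 120 min of light. It rests on 4 of the 24 Affymetrix arrays of the series, 2 labelled fc2 and 2 labelled flu, chosen by genotype and time alone. All 22217 probe sets of the array were read in each. The fc2 seedlings carried the fc2-1 allele of a plastid ferrochelatase, and the flu seedlings were labelled with the genotype name only. Both mutants, and the wild type (wt) used beside them, were of the Col-0 accession. All seeds received 2 h of white light (120 µmol m-2 s-1) to start germination and then grew for 4 days in darkness at 22 °C. The 4-day-old seedlings were then returned to the same light for 0, 30 or 120 min. Each genotype and time has 2 arrays that the labels call biological replicates. Nothing further is said of their origin, so a p-value here speaks of the variation among the arrays at hand, which may be technical.

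Ferrochelatase turns protoporphyrin IX into haem, and seedlings lacking the second plastid isoform are known to build up free porphyrins when they begin to green. FLU holds back the first step of tetrapyrrole synthesis in darkness, and flu seedlings are known to enter the light with an excess of protochlorophyllide. Both kinds of pigment pass energy from light to oxygen and form singlet oxygen inside the plastid, so the pair of mutants offers 2 routes to the same reactive molecule. The question of the comparison is which transcripts separate them once the light has been on for 120 min.

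The deposited values are log2 signals, and a difference of 1 is a doubling. Array medians lay between 5.98 and 6.23 over the series. At 120 min they were 6.16 and 6.15 in fc2, against 6.12 and 6.08 in flu. Across probe sets the 2 fc2 arrays correlated at 0.997 and the 2 flu arrays at 0.993, while an fc2 array and a flu array correlated at 0.957 to 0.962. The corresponding range between the mutants was 0.991 to 0.993 in the dark and 0.959 to 0.969 at 30 min. No probe set is listed for FC2 or FLU alone, so the genotype labels were not checked on the mutated genes. The arrays are of whole seedlings, in which fewer cells of a type and less RNA per cell cannot be told apart.

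Transcripts of late seed maturation separated some arrays from their replicates. The mean log2 signal of M17, PAP85 and M10, genes of the late embryo and its storage proteins, was 5.8 and 7.24 in fc2 at 120 min, against 10.43 and 7.88 in flu. In wt at 120 min it was 4.6 and 7.79. Replicate 1 of flu thus lay above every other array at that time, while replicate 2 of flu lay near replicate 2 of fc2 and of wt. The dark arrays of the mutants differed in the same direction, with 4.42 and 4.4 in fc2, 8.31 and 8.04 in flu and 7.39 and 6.4 in wt. In the dark both fc2 arrays thus lay below those of wt and both flu arrays above. At 120 min the fc2 arrays lay between those of wt. These values stand beside the results on seed genes below. Fits that took them into account are given with the processing, and whether they caused other differences was not tested.

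Differences between fc2 and flu were widespread at 120 min. With limma, fitted over all 24 arrays with 1 mean per group, 8321 of 22217 probe sets had an adjusted p under 0.05 (37.5% of those tested), 3549 higher in fc2 (16.0%) and 4772 lower (21.5%). The larger differences leaned the other way. At least 2-fold differences were called in 1440 probe sets higher in fc2 (6.48%) and 695 lower (3.13%), at least 4-fold ones in 450 and 71, and at least 8-fold ones in 108 and 14. The median difference of all probe sets was -0.06. When 1 of the 4 arrays was left out, between 6526 and 7309 probe sets were called. The 2 fc2 arrays lay outside the range of the 2 flu arrays in 14355 probe sets (64.6%).

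**Figure D1:**
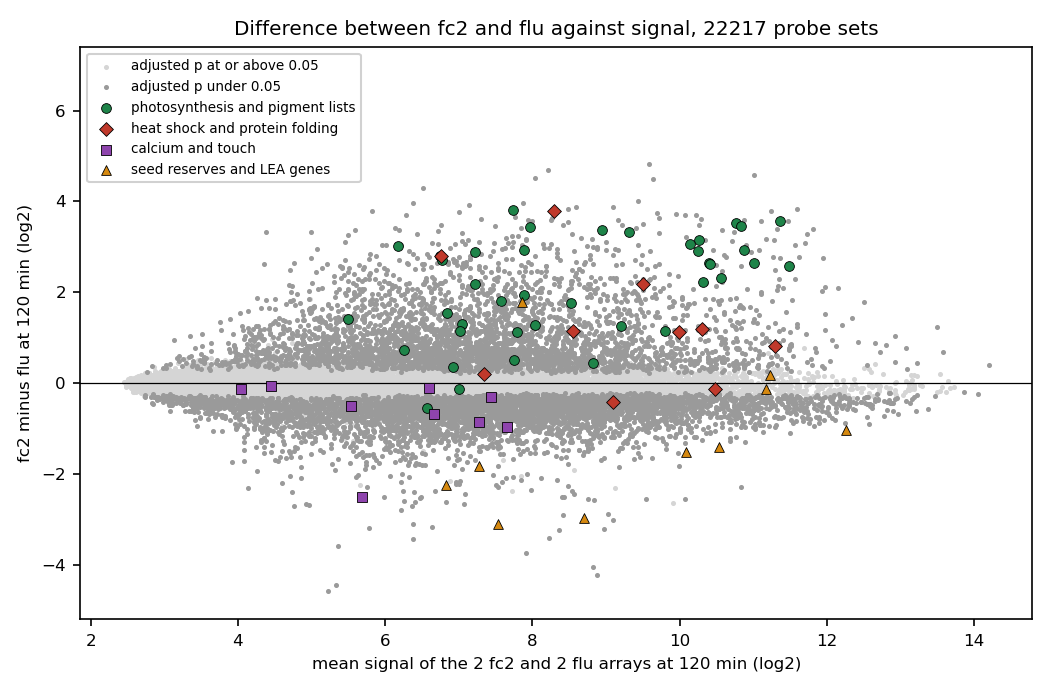
Difference between fc2 and flu at 120 min (fc2 minus flu, log2) against the mean log2 signal of the 4 arrays, 1 point per probe set, with dark grey for adjusted p under 0.05. Members of the photosynthesis and pigment lists (green) lie mostly above 0, 7 of the 10 heat-shock genes are called above 0, and the calcium and seed genes lie mostly below 0.

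The genes with the largest differences in favour of fc2 included several of photosynthesis and chlorophyll. AT5G48490, a lipid-transfer protein gene related to DIR1, led them with a log2 signal of 10.18 and 10.4 in fc2, against 5.65 and 5.9 in flu. The groups were far apart, and the difference was 4.51 ± 0.15 on the log2 scale (SE, n = 2 arrays each), or 22.9-fold (limma, adjusted p = 3.07e-13). In wt the same probe set read 11.41 and 11.22, above fc2 and far above flu. AT5G44440, an oxidase gene of the berberine bridge enzyme family, read 11.12 and 10.92 in fc2, against 7.21 and 7.09 in flu, a difference of 3.87 ± 0.15. TROL, which tethers ferredoxin-NADP reductase to the thylakoid, read 9.64 and 9.67 in fc2, against 6.13 and 5.54 in flu, a difference of 3.82 ± 0.22. The wt arrays of both genes lay near those of fc2, at 10.91 and 10.69 for AT5G44440 and 10.43 and 9.93 for TROL.

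The fourth in order was ATHSP22.0, a small heat-shock protein of the endoplasmic reticulum, which read 10.19 on both fc2 arrays, against 6.26 and 6.57 in flu and 5.5 and 5.83 in wt. Its difference of 3.78 ± 0.14 (13.7-fold, limma adjusted p = 1.62e-12) thus came from fc2 arrays that stood far above both other genotypes. The remaining 8 of the 12 largest were AT5G38520, a chlorophyll dephytylase gene (3.61), the rhodanese-domain gene AT2G42220 (3.58), AT1G74470, the geranylgeranyl reductase that makes the phytyl tail of chlorophyll (3.56), AT1G48100, a polygalacturonase of the wall (3.56), LHCB4.2 of the minor antenna (3.52), AT2G34620 of the mTERF family of organelle proteins (3.49), PSAE-1 of photosystem I (3.46) and the thylakoid calcium sensor CaS (3.44). Set against wt, the flu means of these 8 genes differed by between -4.82 (CaS) and -3.57 (AT1G74470) on the log2 scale. The fc2 means differed from wt by between -1.38 (CaS) and -0.0 (AT1G74470).

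The largest differences against fc2 came from genes of the seed, of nitrogen use and of stress. AT3G01570, an oleosin gene of seed oil bodies, read 5.69 and 7.84 in fc2, against 11.98 and 10.02 in flu. The replicates of each mutant were about as far from each other as the nearest arrays of the mutants were, and the difference of -4.24 ± 1.17 (limma, adjusted p = 0.00778) was not called without replicate 1 of fc2 (-3.16, adjusted p = 0.112) or replicate 1 of flu (-3.26, adjusted p = 0.0938). ASPGB1, an asparaginase that releases nitrogen from asparagine, read 6.65 and 6.94 in fc2, against 10.82 and 10.87 in flu and 6.39 and 6.69 in wt. Its replicates were close and the mutants far apart, with a difference of -4.05 ± 0.11 (16.6-fold, limma adjusted p = 6.56e-14).

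Among the other 10 genes lower in fc2, 5 varied between the flu replicates as the seed genes did. AT5G66780, for example, read 6.21 and 7.29 in fc2, against 11.08 and 8.88 in flu (-3.23 ± 0.68). AT1G27461 (-2.8 ± 0.56), AT1G72100, which holds a domain of late embryogenesis proteins (-2.59 ± 0.49), and AT5G07330 (-2.58 ± 0.62) also had replicate 1 of flu well above replicate 2. The thionin gene AT2G15010 behaved alike (-2.62 ± 0.99, limma adjusted p = 0.0443) and was not called without replicate 1 of flu (-1.32, adjusted p = 0.412), without either fc2 array (-2.21, adjusted p = 0.213, and -3.04, adjusted p = 0.0752) or in 5 of the other alternatives. AT5G07330 was not called without replicate 1 of flu (-1.59, limma adjusted p = 0.0759).

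The other 5 genes had replicates that lay close together. AT2G18210 read 7.36 and 7.39 in fc2, against 10.63 and 10.54 in flu (-3.21 ± 0.14), and AT5G19110, of the aspartyl protease family, read 4.71 and 4.94 in fc2, against 7.71 and 8.14 in flu (-3.1 ± 0.14). AT4G07820, of the family of pathogenesis-related protein 1, read 7.47 and 7.7 in fc2, against 10.35 and 10.6 in flu (-2.89 ± 0.21). AT2G25735 had a difference of -2.7 ± 0.16. AT5G64870, a flotillin-like gene used as a marker of singlet oxygen, read 5.6 and 5.89 in fc2, against 8.31 and 8.5 in flu and 6.03 and 6.38 in wt. Its difference of -2.66 ± 0.14 (6.32-fold, limma adjusted p = 5.16e-11) set flu apart from both other genotypes.

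**Figure D2:**
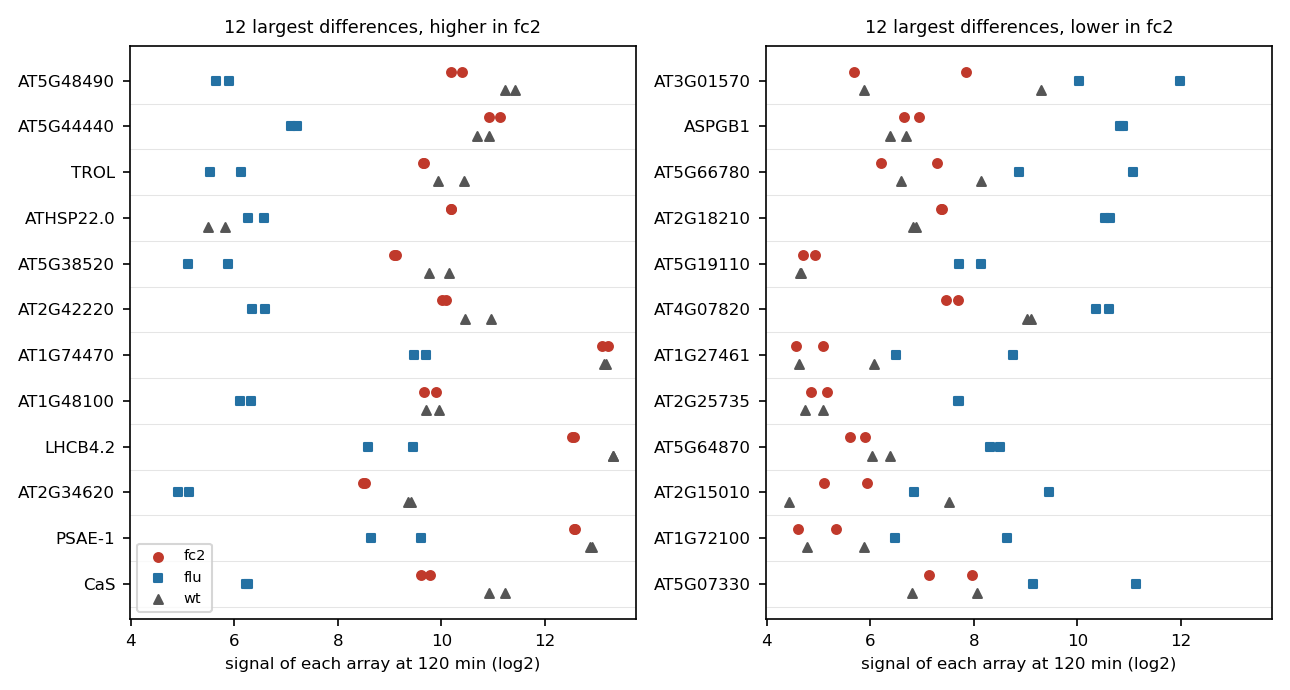
Log2 signal of each array at 120 min for the 12 probe sets with the most positive (left) and the 12 with the most negative (right) difference, with fc2 as circles, flu as squares and wt as triangles, 2 arrays each. On the left fc2 lies above flu in every gene, as the choice of these genes required. For ATHSP22.0 fc2 also lies far above wt. For several other genes on the left fc2 lies below wt, by most for CaS and AT5G48490. On the right the 2 flu arrays are wide apart for AT3G01570, AT5G66780, AT1G27461, AT2G15010, AT1G72100 and AT5G07330.

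The few measured genes of the photosynthetic machinery were higher in fc2. Of 20 listed light-harvesting genes 3 were measured, and all 3 were called higher, where 16.0% of all probe sets were. Their median was 2.64, and that of all probe sets -0.06. LHCB4.2 read 12.51 and 12.56 in fc2, against 9.45 and 8.58 in flu and 13.31 on both wt arrays. LHCB4.1 read 12.41 and 12.25 in fc2, against 9.86 and 9.51 in flu, a difference of 2.64 ± 0.12. LHCB4.3 differed least, with 7.94 and 8.06 in fc2 and 7.48 and 7.53 in flu (0.5 ± 0.11, limma adjusted p = 0.00142). All 3 encode the CP29 antenna of photosystem II. The mutants did not overlap in any of them, as in 64.6% of all probe sets. Both mutants lay below wt, with log2 differences from wt of -1.74 to -0.65 in fc2 and -4.3 to -2.24 in flu.

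Of 46 listed genes of the photosystems and the Calvin cycle 8 were measured. All 8 were higher in fc2, between 2.32 and 3.46 with a median of 2.9, where 16.0% of all probe sets were higher. RCA, the activase that keeps Rubisco open, read 12.68 and 12.85 in fc2, against 10.32 and 10.07 in flu, a difference of 2.57 ± 0.1 (5.94-fold, limma adjusted p = 1.99e-12). PSAN of photosystem I differed by 2.64 ± 0.11, ATPC1, the gamma subunit of the chloroplast ATP synthase, by 2.32 ± 0.1 and PSBY of photosystem II by 3.16 ± 0.15. The fc2 and flu arrays of these 4 genes were apart by more than their replicate spread. Averaged over the 8 genes, the signal was 11.72 and 11.77 in fc2, 9.04 and 8.59 in flu and 12.58 and 12.43 in wt. Against wt, 7 of the 8 were lower in fc2 (median -0.82) and all 8 in flu (median -3.64), where 7.53% and 18.2% of all probe sets were lower.

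Of 10 measured of 35 listed genes of tetrapyrrole synthesis, the pathway in which both mutations lie, 9 were higher in fc2 and none lower, with a median of 1.85. Over all probe sets the shares were 16.0% higher and 21.5% lower. The members on the branch to chlorophyll are given first. PORB, a light-driven protochlorophyllide oxidoreductase, read 12.35 and 12.31 in fc2, against 9.44 and 9.38 in flu and 10.61 and 10.88 in wt. It was the member in which fc2 was higher than wt (1.58), while flu was lower (-1.34), and the mutants differed by 2.92 ± 0.13 (limma, adjusted p = 9.09e-12). AT1G74470 read 13.09 and 13.21 in fc2, against 9.7 and 9.47 in flu. CHLM, the methyltransferase after magnesium insertion, differed by 2.22 ± 0.08, and CHLI2, a subunit of magnesium chelatase, by 2.8 ± 0.14.

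Among the steps before the branch point, HEME1 and HEME2, uroporphyrinogen decarboxylases, differed by 1.94 ± 0.14 and 1.76 ± 0.13, and HEMB1, which joins 2 molecules of aminolevulinate, by 1.14 ± 0.1. GSA1, which makes aminolevulinate, read 8.97 and 9.09 in fc2, against 8.55 and 8.65 in flu (0.43 ± 0.1). NOL, a chlorophyll b reductase that acts on finished chlorophyll, differed by 1.3 ± 0.11. The member that was not called was HEMA2, a glutamyl-tRNA reductase, with 6.9 and 6.98 in fc2, against 7.03 and 7.12 in flu (-0.14 ± 0.14, limma adjusted p = 0.525). HEME1, HEME2, HEMB1, GSA1, NOL and HEMA2 were picked out after their values were seen. Against wt the list had 1 gene higher and 5 lower in fc2 (median -0.28), and 1 higher and 9 lower in flu (median -2.0). Over all probe sets 9.71% were higher and 7.53% lower in fc2, and 28.4% and 18.2% in flu.

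Genes of proteins that build or serve the thylakoid also tended to be higher in fc2. This list and the next 2 were drawn up after the leading genes had been seen, so their direction is a description. Of 19 genes of thylakoid assembly and electron transport, 17 were higher in fc2, 1 lower and 1 not called, with a median of 1.8. The shares over all probe sets were 16.0% higher and 21.5% lower. NdhN, of the NADH dehydrogenase-like complex, read 8.14 on both fc2 arrays, against 5.59 and 5.27 in flu. HCF101, an iron-sulphur scaffold for photosystem I, read 8.24 and 8.38 in fc2, against 6.2 and 6.05 in flu, and LIL3:2, a light-harvesting-like protein that holds enzymes of chlorophyll synthesis, read 11.72 and 11.61 in fc2, against 8.99 and 8.23 in flu. The mutants did not overlap in these genes, as in 64.6% of all probe sets. TAAC, a thylakoid ATP/ADP carrier, went the other way, with 6.33 and 6.26 in fc2, against 6.73 and 6.97 in flu (-0.56 ± 0.1, limma adjusted p = 0.000219), and PGRL1B was not called (0.36 ± 0.22). Both are singled out after their values were seen.

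Of 7 genes of plastid redox balance and photorespiration 6 were higher in fc2, with a median of 1.4. HPR, the peroxisomal hydroxypyruvate reductase, read 11.02 and 10.89 in fc2, against 8.2 and 7.63 in flu and 12.7 and 12.46 in wt. TAPX, the thylakoid ascorbate peroxidase that removes hydrogen peroxide, differed by 2.34 ± 0.11, the thioredoxin TRXF2 by 2.11 ± 0.12 and the thioredoxin reductase NTRC by 1.4 ± 0.28. SRX, a sulfiredoxin, read 7.99 and 8.09 in fc2, against 7.97 and 7.98 in flu, and was not called (0.06 ± 0.1). Of 10 organelle RNA-editing factors 4 were higher in fc2 and none lower, with a median of 0.27. The shares over all probe sets were 16.0% higher and 21.5% lower. The 4 factors were CRR21 (1.82 ± 0.32), CRR28 (1.11 ± 0.13), OTP84 (0.96 ± 0.14) and OTP85 (0.52 ± 0.13), all pentatricopeptide-repeat proteins. OTP85 was not called without replicate 1 of flu (0.31, limma adjusted p = 0.0892).

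**Figure D3:**
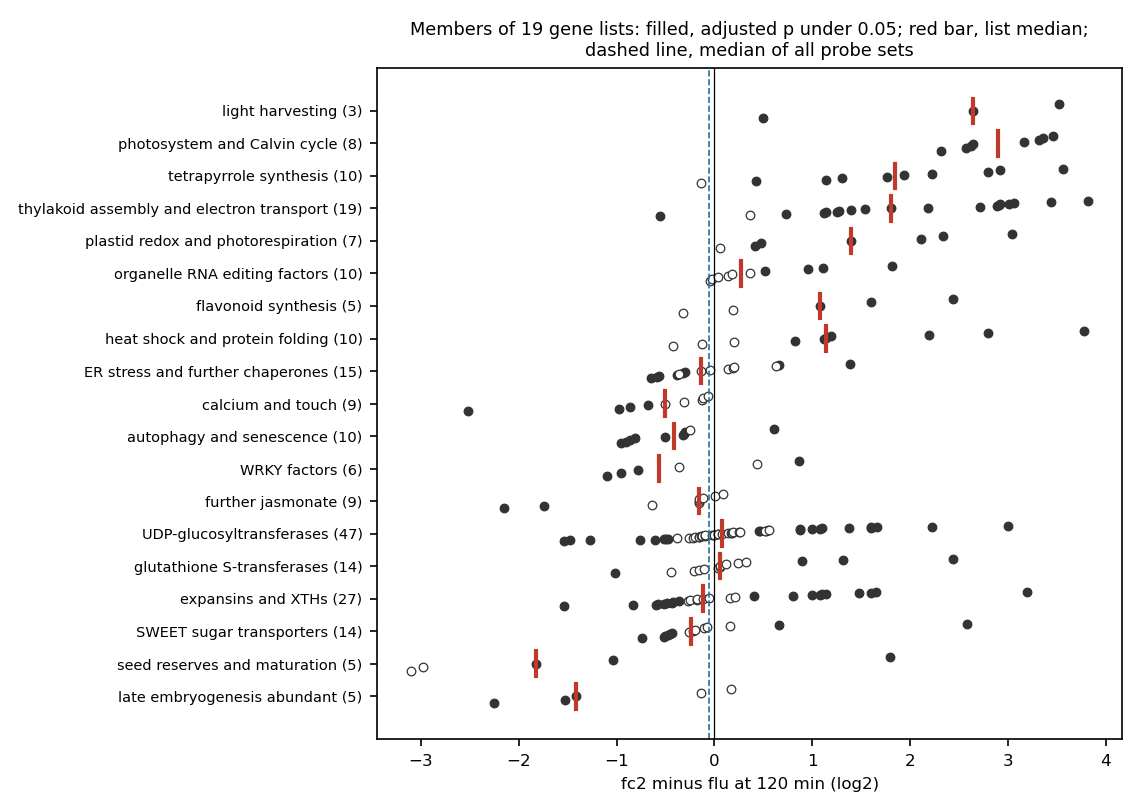
Difference between fc2 and flu at 120 min (log2) for each measured member of 19 gene lists, with the number of members in brackets. Filled points have adjusted p under 0.05, the red bar is the list median and the dashed line the median of all probe sets at -0.06. The photosynthesis lists lie to the right with medians of 1.8 to 2.9, heat shock at 1.14, and the calcium, autophagy and WRKY lists to the left at -0.41 to -0.57.

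Heat-shock genes were higher in fc2 than in flu at 120 min, and both mutants then lay above wt. Of 10 measured members 7 were higher in fc2 and none lower, with a median of 1.14. Over all probe sets 16.0% were higher and 21.5% lower. AT1G52560, a small heat-shock protein gene, read 8.22 and 8.11 in fc2, against 4.91 and 5.82 in flu and 3.47 and 3.83 in wt. AT5G37670, another of that family, read 10.43 and 10.76 in fc2, against 8.4 on both flu arrays and 6.23 and 6.73 in wt. The 3 genotypes formed 3 separate levels in both genes, and fc2 exceeded flu by 2.8 ± 0.22 and by 2.19 ± 0.19. AT1G53540, of the cytosolic class, differed less, with 10.56 and 10.54 in fc2 and 9.39 and 9.46 in flu (1.12 ± 0.2, limma adjusted p = 0.000155), while wt read 5.7 and 5.76.

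Within the heat-shock list, AT2G20560, a DnaJ-type co-chaperone gene (-0.42 ± 0.25), Hop3, which links HSP70 to HSP90 (0.2 ± 0.4), and AT5G51440, a mitochondrial small heat-shock protein gene (-0.13 ± 0.3), were not called. These 3 are named because they are the exceptions. Against wt all 10 members were higher in fc2 (median 3.56) and 9 in flu (median 1.83), where 9.71% and 28.4% of all probe sets were higher. At 30 min, when 22.5% of all probe sets were higher in fc2 than in flu, all 10 were, with a median of 1.65. The mean of the 10 genes was then 7.72 and 7.86 in fc2, 6.01 and 6.15 in flu and 6.45 and 7.39 in wt. Both flu arrays thus lay below both wt arrays at that time. In the dark none was higher in fc2 than in flu and 1 was lower, where 1.08% and 1.23% of all probe sets were. The median was then -0.6.

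The marker of singlet oxygen separated the mutants in the opposite direction to the heat-shock genes. Of 4 measured genes of the singlet-oxygen list, AT5G64870 and STZ were lower in fc2 and EX1 was higher. STZ, a zinc-finger repressor of stress responses, read 9.66 and 9.89 in fc2, against 10.29 and 10.36 in flu and 8.1 and 8.52 in wt. Its difference was small (-0.55 ± 0.21, limma adjusted p = 0.0438) and was not called when any of the 4 arrays was left out (-0.66 to -0.43, adjusted p 0.0599 to 0.241). EX1, the plastid protein EXECUTER1 needed for singlet-oxygen signalling in flu, read 8.25 and 8.4 in fc2, against 7.93 and 8.07 in flu (0.32 ± 0.12, limma adjusted p = 0.0488). It too was not called without any one of the arrays (0.25 to 0.4, adjusted p 0.0616 to 0.259). AT3G28580, an AAA-type ATPase gene induced by singlet oxygen, was dim on all arrays, with 2.73 and 2.81 in fc2, against 2.94 and 2.83 in flu.

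Calcium and touch genes were lower in fc2 where they differed. Of 9 measured members 4 were lower and none higher, with a median of -0.5, where 21.5% of all probe sets were lower and 16.0% higher. AT3G01830, the calmodulin-like CML40, read 4.48 and 4.37 in fc2, against 6.93 and 6.95 in flu and 3.93 and 4.22 in wt, a difference of -2.52 ± 0.25 (5.72-fold, limma adjusted p = 2.01e-07). CML42 read 7.17 and 7.18 in fc2, against 8.04 and 8.25 in flu (-0.97 ± 0.11). AT1G76640 (-0.86 ± 0.23) and CML37 (-0.68 ± 0.19), also calmodulin-like, were above wt in both mutants, by 2.9 and 1.25 in fc2 and by 3.76 and 1.92 in flu. Neither of these was called without replicate 1 of fc2 (limma, -0.54, adjusted p = 0.138, and -0.58, adjusted p = 0.0784) or without replicate 2 of flu (-0.58, adjusted p = 0.114, and -0.64, adjusted p = 0.0513).

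Of 3 measured genes of the salicylate list 2 were lower in fc2 and none higher, where 21.5% and 16.0% of all probe sets were. GRX480, a glutaredoxin that acts with salicylate, read 8.9 and 9.26 in fc2, against 9.94 and 10.2 in flu and 6.12 and 6.29 in wt (-0.99 ± 0.19, limma adjusted p = 0.000332). The mutants did not overlap, as in 64.6% of all probe sets, and both were far above wt. WRKY53, a transcription factor of senescence and defence, read 3.71 and 4.09 in fc2, against 4.93 and 4.44 in flu (-0.78 ± 0.19). It was not called without replicate 1 of fc2 (limma, -0.59, adjusted p = 0.0531) or of flu (-0.54, adjusted p = 0.0586). SAG101, the other measured member of the salicylate list, differed by -0.32 ± 0.14 (limma, adjusted p = 0.0873).

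Of 9 jasmonate genes, a list drawn up after the leading genes were seen, 2 were lower in fc2 and none higher, a share near the 21.5% of all probe sets that were lower. OPCL1, a ligase of jasmonate synthesis, read 6.04 and 5.85 in fc2, against 7.98 and 8.22 in flu and 5.41 and 5.55 in wt (-2.15 ± 0.12, limma adjusted p = 8.99e-11). ORA47, an activator of that pathway, read 6.01 and 6.47 in fc2, against 7.81 and 8.16 in flu and 4.98 and 5.16 in wt (-1.74 ± 0.18). Both genes were at their highest in flu, with fc2 between flu and wt. PDF1.2 (-0.16 ± 0.11) and PDF1.2b (-0.64 ± 0.37), defensins induced by jasmonate, and the methyltransferase JMT (0.09 ± 0.14) were not called. Without replicate 2 of flu PDF1.2b was called (-1.44, limma adjusted p = 0.00193), as its flu arrays read 7.04 and 5.43. The ethylene regulator EIN3 differed by -0.24 ± 0.15 and was not called.

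Of 6 WRKY factors 3 were lower in fc2 and 1 higher, with a median of -0.57. WRKY47 (-1.1 ± 0.17), WRKY6 (-0.95 ± 0.15) and WRKY53 were lower. WRKY22, which acts in immune signalling, read 6.99 and 6.96 in fc2, against 6.29 and 5.95 in flu and 5.4 and 5.29 in wt (0.86 ± 0.15, limma adjusted p = 0.000216). Of 9 U-box ubiquitin ligases 3 were lower and 2 higher, with a median of -0.09, shares near those of all probe sets (21.5% and 16.0%). PUB24 read 5.21 and 5.48 in fc2, against 6.87 and 7.23 in flu (-1.7 ± 0.19), and PUB23 read 6.49 and 7.0 in fc2, against 7.84 and 8.36 in flu (-1.36 ± 0.18). PUB23 and PUB24 are known to dampen immune signalling. PUB25, of the same family, was higher in fc2 (0.9 ± 0.16).

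Of 4 measured genes of the auxin and elongation list 3 were lower in fc2 and 1 higher, with a median of -1.05. Over all probe sets 21.5% were lower and 16.0% higher. IAA29, an Aux/IAA repressor, read 4.71 and 4.85 in fc2, against 6.75 and 6.6 in flu and 5.07 and 4.85 in wt (-1.9 ± 0.16, limma adjusted p = 3.29e-08). GH3.3, which conjugates auxin to amino acids, read 6.82 and 6.98 in fc2, against 8.34 and 8.8 in flu (-1.67 ± 0.21). WES1, a related enzyme gene, differed by -0.42 ± 0.11 and was not called without replicate 1 of fc2 (-0.35, limma adjusted p = 0.0706) or replicate 2 of flu (-0.35, adjusted p = 0.0675). EXPA8, a wall-loosening protein, read 9.51 and 9.77 in fc2, against 8.15 and 8.17 in flu (1.48 ± 0.12). For IAA29 and EXPA8 the fc2 arrays lay beside those of wt and the flu arrays apart from both.

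The wall-loosening families as a whole were divided. Of 27 expansins and XTHs, enzymes that cut and rejoin xyloglucan, 10 were higher in fc2, 9 lower and 8 not called, with a median of -0.12. Over all probe sets 16.0% were higher and 21.5% lower. XTH32 read 9.14 and 9.34 in fc2, against 5.7 and 6.4 in flu and 10.37 and 10.11 in wt, a difference of 3.19 ± 0.18 (9.13-fold, limma adjusted p = 9.55e-11). EXLA2 (1.6 ± 0.17) and EXPA4 (1.14 ± 0.12) were also higher. XTH18, singled out after its values were seen, had the most negative difference, with 7.19 and 7.58 in fc2, against 8.85 and 9.01 in flu (-1.54 ± 0.18).

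The measured members of the autophagy and senescence list were mostly lower in fc2, by small amounts. All of them but WRKY6 belong to the ATG8 family. Of 10 measured of 24 listed members 8 were lower and 1 higher, where 21.5% and 16.0% of all probe sets were. Their median was -0.41. APG8A, one of the ubiquitin-like ATG8 proteins that coat autophagosomes, read 10.24 on both fc2 arrays, against 11.15 and 11.05 in flu and 9.83 and 9.98 in wt (-0.86 ± 0.1, limma adjusted p = 9.9e-07). ATG8B (-0.9 ± 0.12), ATG8G (-0.81 ± 0.12) and the senescence factor WRKY6 gave differences of the same size. In APG8A the fc2 arrays lay between flu and wt. ATG8H, singled out as the exception, read 8.93 and 8.77 in fc2, against 8.23 and 8.25 in flu (0.61 ± 0.15). Against wt 7 members were higher in fc2 (median 0.41) and 9 in flu (median 0.86), where 9.71% and 28.4% of all probe sets were higher.

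Flavonoid genes, which are switched on as seedlings green, were higher in fc2 in 3 of 5 members, where 16.0% of all probe sets were. CHIL, a chalcone isomerase-like protein, read 8.51 and 8.54 in fc2, against 6.15 and 6.03 in flu and 10.1 and 10.14 in wt, a difference of 2.44 ± 0.12 (5.41-fold, limma adjusted p = 2.88e-11). The flavonoid glycosyltransferases UGT78D1 (1.6 ± 0.23) and UGT78D2 (1.08 ± 0.13) were also higher. CHIL and UGT78D1 formed 3 levels, with fc2 between wt and flu. DFR (-0.32 ± 0.28), on the anthocyanin branch, was not called.

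Single members of the light, cold and hormone lists also differed. HYH, a bZIP factor that promotes light responses, read 8.82 and 8.67 in fc2, against 6.69 and 6.83 in flu and 9.51 and 8.86 in wt (1.98 ± 0.2, limma adjusted p = 2.17e-07). FHL, which carries phytochrome A into the nucleus, had a difference of -0.73 ± 0.25 and was not called without replicate 2 of fc2 (-0.34, limma adjusted p = 0.386) or replicate 1 of flu (-0.47, adjusted p = 0.247). GI, of the clock, differed by -0.4 ± 0.11 and was not called without replicate 2 of either mutant (-0.29, limma adjusted p = 0.105 for fc2, and -0.32, adjusted p = 0.0746 for flu).

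COR15A, a chloroplast protein of cold tolerance, read 6.75 and 6.29 in fc2, against 4.29 and 3.5 in flu and 7.32 and 8.19 in wt (2.62 ± 0.33), and COR15B read 6.92 and 6.12 in fc2, against 4.46 and 4.47 in flu (2.06 ± 0.23). COR47, a dehydrin, was not called (-0.14 ± 0.17). RR16, a response regulator of cytokinin signalling, read 5.2 and 5.39 in fc2, against 4.13 and 4.05 in flu (1.2 ± 0.17). AT2G21640, induced by oxidative stress, encodes a mitochondrial protein. It read 9.16 and 9.33 in fc2, against 7.75 on both flu arrays and 8.04 and 7.82 in wt (1.5 ± 0.16, limma adjusted p = 7.09e-07). Here fc2 stood above both flu and wt.

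Genes of detoxification differed in each direction, though glutathione S-transferases and cytochromes P450 were called less often than the 37.5% of all probe sets. Of 47 UDP-glucosyltransferases, which attach sugars to hormones and small molecules, 15 were higher in fc2, 8 lower and 24 not called, with a median of 0.08, where 16.0% of all probe sets were higher and 21.5% lower. UGT88A1 read 10.24 and 10.41 in fc2, against 7.69 and 6.97 in flu (3.0 ± 0.18), and UGT76E11 read 6.3 and 6.51 in fc2, against 4.29 and 4.09 in flu (2.22 ± 0.12). UGT72E1, which acts on monolignols, read 7.2 and 7.32 in fc2, against 8.87 and 8.74 in flu (-1.54 ± 0.1), and UGT71C2 had a difference of -1.48 ± 0.12. Of 14 glutathione S-transferases 3 were higher and 1 lower. GSTU18 read 8.07 and 8.14 in fc2, against 5.79 and 5.53 in flu and 9.13 and 9.17 in wt (2.44 ± 0.11, limma adjusted p = 5.65e-12), and GSTU22 read 10.17 on both fc2 arrays, against 11.11 and 11.27 in flu (-1.02 ± 0.11). Of 24 cytochromes P450 2 were higher and 4 lower, none by more than 1, with CYP71B29 at -0.92 ± 0.12 and CYP71B5 at 0.63 ± 0.13.

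Seed genes differed between the mutants in both directions, and in the late-maturation genes the replicates differed as well. Of 5 measured members of the seed list, 1 was higher in fc2, 2 lower and 2 not called, with a median of -1.82. The shares over all probe sets were 16.0% higher and 21.5% lower. PAP85, a vicilin-like storage protein, read 6.28 and 8.15 in fc2, against 11.27 and 9.12 in flu and 4.91 and 8.7 in wt (-2.98 ± 1.55, limma adjusted p = 0.152). M17, singled out after its values were seen, read 5.3 and 6.66 in fc2, against 10.7 and 7.47 in flu and 2.76 and 7.59 in wt (-3.1 ± 1.89, limma adjusted p = 0.228). In both the spread between replicates was large and the wt arrays lay on either side of those of fc2. M10 read 5.83 and 6.91 in fc2, against 9.33 and 7.06 in flu (-1.82 ± 0.59, limma adjusted p = 0.0202). Without replicate 1 of flu the M10 difference was -0.69 (limma, adjusted p = 0.395), and without replicate 1 of fc2 it was -1.28 (adjusted p = 0.207).

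The other members of the seed list had replicates that lay close together. ICL, the isocitrate lyase that turns stored oil into sugar, read 11.62 and 11.85 in fc2, against 12.88 and 12.67 in flu (-1.04 ± 0.14, limma adjusted p = 6.84e-06). OLEO3, an oleosin, read 8.73 and 8.79 in fc2, against 7.16 and 6.78 in flu and 8.2 and 8.15 in wt (1.79 ± 0.12, limma adjusted p = 2.03e-09). ICL differed in the same direction as the late-maturation genes and OLEO3 in the opposite one. Among 5 late embryogenesis abundant genes, a list drawn up after the leading genes were seen, 3 were lower in fc2 and none higher. Their median was -1.41, and 21.5% of all probe sets were lower and 16.0% higher. AtLEA4-1 read 9.55 and 10.12 in fc2, against 11.64 and 10.85 in flu (-1.41 ± 0.23). LEA (-2.25 ± 0.69) and LEA18 (-1.53 ± 0.38) were not called without replicate 1 of flu (-1.12, limma adjusted p = 0.274, and -0.77, adjusted p = 0.118) or without replicate 1 of fc2 (-1.7, adjusted p = 0.155, and -1.27, adjusted p = 0.0546).

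**Figure D4:**
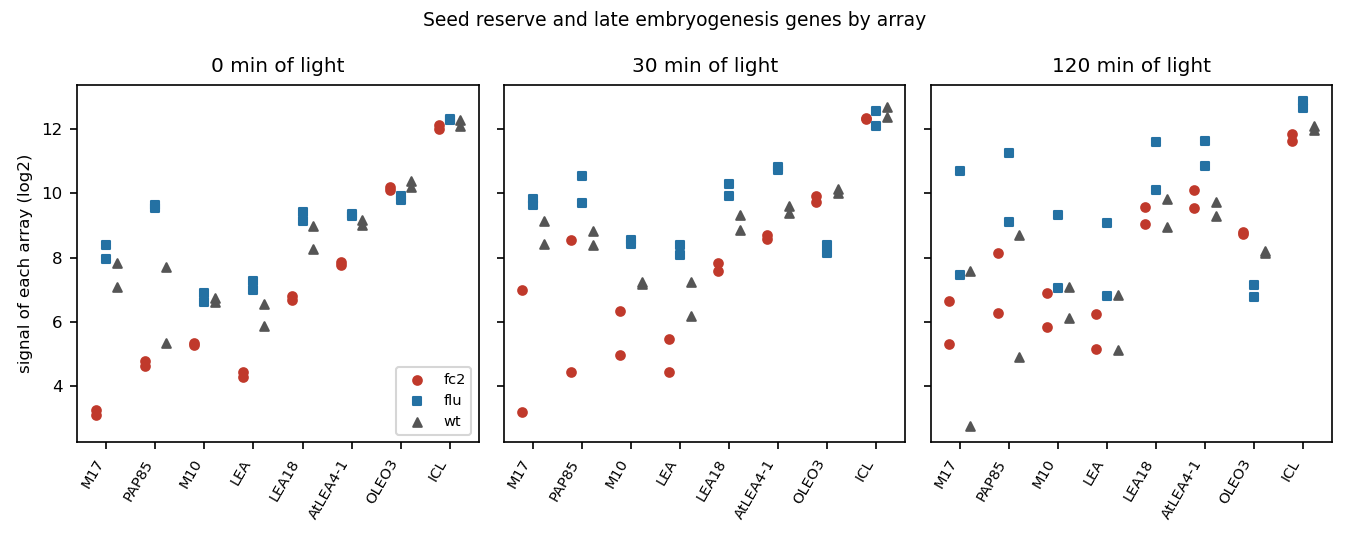
Log2 signal of each array for 5 seed reserve genes and 3 late embryogenesis abundant genes at 0, 30 and 120 min of light, with fc2 as circles, flu as squares and wt as triangles, 2 arrays each. For M17, PAP85 and M10 the dark fc2 arrays lie below those of flu, and at 120 min replicate 1 of flu stands above every other array shown there for these 3 genes.

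Few markers of other tissues were measured. Of 2 root genes measured of 12 listed, EXPA7, a root-hair expansin, read 5.06 and 5.32 in fc2, against 5.83 and 6.21 in flu (-0.83 ± 0.19, limma adjusted p = 0.00188), and EXPA18 was not called (-0.27 ± 0.22). The mean of the pair was 5.01 and 5.25 in fc2, against 5.43 and 5.93 in flu and 5.05 and 5.36 in wt. The green-tissue genes were the 3 light-harvesting genes given above, whose mean was 10.95 and 10.96 in fc2, against 8.93 and 8.54 in flu. The reference genes AT4G34270 (-0.09 ± 0.09) and AT2G28390 (0.21 ± 0.1) were not called.

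The difference between the mutants was largely one of the lit seedlings. Before light, fc2 and flu differed in 514 probe sets (2.31% of those tested), 241 higher in fc2 (1.08%) and 273 lower (1.23%). At 30 min they differed in 10638 (47.9%), 5002 higher (22.5%) and 5636 lower (25.4%). The 3 times share no arrays. Of the 3549 probe sets higher in fc2 at 120 min, 82 (2.31%) were also higher at 0 min, which is 34.0% of the 241. Nearly as many, 73 (2.06%), were called lower at 0 min. At 30 min 2717 (76.6%) were higher as well, which is 54.3% of the 5002, and 62 (1.75%) were lower. Of the 4772 lower ones, 102 (2.14%, or 37.4% of the 273) were lower at 0 min and 2947 (61.8%, or 52.3% of the 5636) at 30 min. Called higher instead were 77 (1.61%) at 0 min and 80 (1.68%) at 30 min. The dark count rested on every array, with 115 to 247 probe sets called when 1 of the 4 was left out.

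Some of the named genes already differed in the dark. ASPGB1 read 7.13 and 7.09 in fc2, against 9.5 and 9.64 in flu at 0 min (-2.46, limma adjusted p = 3.12e-10), and its difference was -3.66 at 30 min and -4.05 at 120 min. AT4G07820 had differences of -2.08, -2.8 and -2.89 at the 3 times, and LHCB4.2 of 1.27, 2.38 and 3.52. RR16 changed sign, with -2.22 at 0 min, -1.51 at 30 min and 1.2 at 120 min. AT2G21640 did so too, with -1.32 in the dark (limma, adjusted p = 0.000152), -0.24 at 30 min (not called) and 1.5 at 120 min. The late embryogenesis list had all 5 members lower in fc2 at 0 min, with a median of -2.46, where 1.23% of all probe sets were. Its dark mean was 6.68 and 6.63 in fc2, 8.56 and 8.76 in flu and 8.23 and 7.86 in wt.

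Others differed in the light alone, at 30 min or later. RCA differed by 0.1 at 0 min (not called), 0.96 at 30 min and 2.57 at 120 min. AT5G64870 read 5.77 and 5.71 in fc2, against 5.77 and 5.76 in flu in the dark, and differed by -1.88 at 30 min and -2.66 at 120 min. OPCL1 (-0.24, not called), ORA47 (-0.1, not called) and AT3G01830 (-0.08, not called) differed at 120 min but were not called at 30 min. COR15A, unlike these, was lower in fc2 in the dark (-1.62), not called at 30 min (-0.26) and higher at 120 min (2.62).

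**Figure D5:**
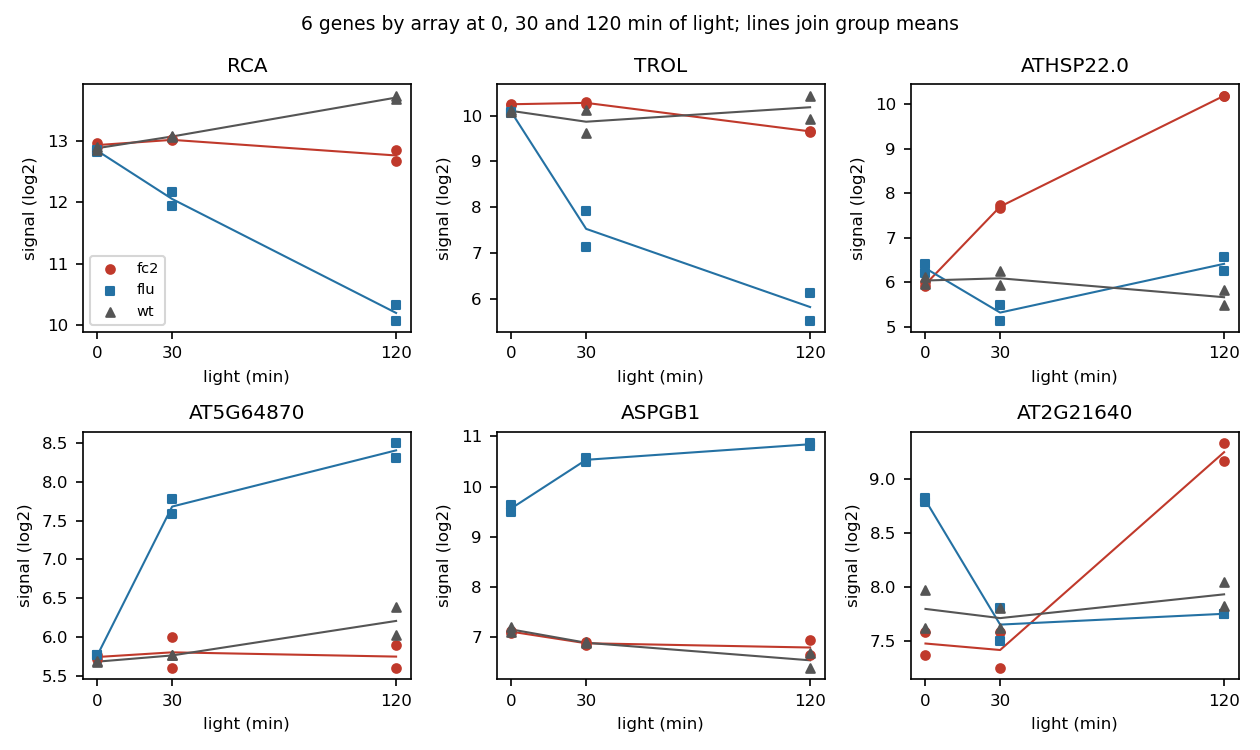
Log2 signal of each array of fc2 (circles), flu (squares) and wt (triangles) at 0, 30 and 120 min of light for 6 genes, with lines through the means of 2 arrays. RCA and TROL are lower in flu at 30 and 120 min, ATHSP22.0 is higher in fc2 at 30 and 120 min, AT5G64870 is higher in flu from 30 min, ASPGB1 is higher in flu at all 3 times, and AT2G21640 changes order.

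The response to light itself was tested as the change between 0 and 120 min in fc2 minus that in flu. It differed in 5979 probe sets (26.9% of those tested), 2722 higher in fc2 (12.3%) and 3257 lower (14.7%). COR15A changed by 2.41 in fc2 and by -1.84 in flu, a difference of 4.25 ± 0.47 (limma, adjusted p = 1.55e-06). Its dark arrays read 4.13 and 4.1 in fc2, 5.16 and 6.32 in flu and 4.19 and 4.06 in wt. The fall in flu thus started from dark replicates that were raised and lay apart. The heat-shock gene ATHSP22.0 changed by 4.24 in fc2 and 0.1 in flu (4.14 ± 0.2). AT5G48490 changed by -0.6 in fc2 and -4.68 in flu (4.08 ± 0.21), so its difference lay in flu. In the other direction, AT2G18210 changed by 0.93 in fc2 and 4.29 in flu (-3.36 ± 0.2), and AT5G19110 by 0.01 in fc2 and 2.83 in flu (-2.82 ± 0.2). AT5G61890, an ERF-type transcription factor gene, changed by -0.15 in fc2 and 2.6 in flu (-2.76 ± 0.31). All 8 photosystem and Calvin cycle genes and 9 of 10 tetrapyrrole genes were called higher in fc2 in this contrast, with medians of 2.81 and 1.94 where that of all probe sets was -0.02.

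The mutants stood at different distances from wt at 120 min. In fc2, 3830 probe sets differed from wt (17.2% of those tested), 2157 higher (9.71%) and 1673 lower (7.53%). In flu 10354 did (46.6%), 6311 higher (28.4%) and 4043 lower (18.2%). At least 2-fold differences numbered 239 higher (1.08%) and 384 lower (1.73%) in fc2, and 1562 higher (7.03%) and 1871 lower (8.42%) in flu. These 2 comparisons share the wt arrays, which correlated at 0.991 with each other. The fc2 count was 2382 without replicate 1 and 2410 without replicate 2 of fc2, and 2141 in a fit of only the 8 arrays at 120 min. Higher calls made up 56.3% of those in fc2 and 61.0% of those in flu, and 17% and 48.3% once the arrays were scaled to the reference genes.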

How the data were processed

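RNA of whole seedlings was hybridised to 24 Affymetrix ATH1 arrays, 2 per genotype and time. Per the submitters' processing notes the authors used RMA, whose version is not given in the sources used here, and the deposited values are log2 signals, used unchanged. RMA evens out the arrays, so a shift shared by most transcripts is not seen. Groups came from the labels. limma 3.58.1 in R 4.3.3 fitted 1 mean per genotype and time over all arrays, fc1 included for the spread alone, so each SE pools all 12 groups. Two-sided p-values were adjusted by Benjamini-Hochberg over 22217 probe sets within each comparison, and an adjusted p under 0.05 was called. Only the 13171 probe sets annotated to 1 gene were named, 482 having several and 8564 none, with symbols from RefSeq's TAIR10.1 table. Named were the 12 most positive and 12 most negative called differences with arrays that did not overlap, the 5 most positive and 5 most negative light-response differences, and up to 4 members per list with the smallest p. AT2G20560, AT5G51440, ATG8H, GSA1, HEMA2, HEMB1, HEME1, HEME2, Hop3, M17, NOL, PGRL1B, SRX, TAAC and XTH18 were named after their values were seen. All members and lists were chosen with earlier results of these data known. The steps were tested on simulated data. Deviations from the group means of arrays with the same replicate number correlated at 0.01 for fc2 and flu at 120 min and at -0.54 to 0.4 over pairs of groups, so the numbers were not taken to pair the arrays. The number of arrays limits the precision.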

Additional observations from a re-analysis of the deposited data

Results flagged for a closer look

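The change between 0 and 120 min of light differed between fc2 and flu by a direct test in 5979 probe sets, which is why the genes below are listed. In the direction of fc2 the differences were 4.25 for COR15A, 4.14 for ATHSP22.0, 4.08 for AT5G48490, 3.78 for AT1G48100 and 3.64 for TROL on the log2 scale. TROL changed by -0.59 in fc2 and -4.23 in flu, and AT1G48100 by 5.49 in fc2 and 1.72 in flu. In the other direction they were -3.36 for AT2G18210, -2.82 for AT5G19110, -2.76 for AT5G61890, -2.64 for AT5G64870 and -2.58 for AT3G01830. The last of these, a calmodulin-like gene, changed by 1.34 in fc2 and 3.92 in flu.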

How the results depend on the processing

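With 2 arrays per group, each value rests on few arrays. The fc2 minus flu count at 120 min (8321) was 6526 to 7309 when 1 of the 4 arrays was left out and 6786 to 8472 under the other alternatives. The dark count (514) was 1358 with array weights, 191 with the mean of the seed genes as a covariate, 184 with the mean of M17, PAP85 and M10 as a covariate (an alternative chosen after seeing the data), and 115 to 247 without single arrays. The fc2 minus wt count (3830) was 2141 with only the 8 arrays at 120 min and 2382 to 3408 without single arrays. Without the dimmest 40% of probe sets the list medians turned to -0.14 (abscisic acid and cold, 2.06 before) and 0.44 (WRKY, -0.57 before), because fewer members were tested, and 58.2% of calls at 30 min were higher in fc2, against 47.0%. The seed list median was 0.1 with M17, PAP85 and M10 as a covariate, against -1.82, as that covariate is the mean of 3 of the list's 5 members and so removes their own difference. At 120 min 7494 probe sets were called with the seed-gene mean as a covariate and 7341 with that of M17, PAP85 and M10. Of the 136 named genes 132 and 131 kept direction and call in these fits. With arrays scaled to the reference genes, the median over all probe sets was -0.35 at 30 min (-0.08 unscaled). For fc2 minus wt it was -0.18 (0.01 unscaled). That scaling moved the share of higher calls to 64.6% in the dark (46.9%) and 21.4% at 30 min (47.0%). With the replicate block 8166 probe sets were called at 120 min, 446 in the dark, 10476 at 30 min and 5859 for the light response. Of 136 named genes, 122 to 128 kept direction and call when 1 of the 4 arrays was left out, 130 with only the 8 arrays at 120 min, and 135 under the block, EX1 being the exception (0.33, limma adjusted p = 0.0572).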

Other observations

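Further lists, drawn up after the leading genes were seen, held members that differed at 120 min. Over all probe sets 16.0% were higher in fc2 and 21.5% lower. The counts of the auxin and immunity lists lie near these shares, and those of the cell division list below them. Of 14 SWEET sugar transporters 2 were higher in fc2 and 6 lower, and SWEET4 read 6.62 and 6.74 in fc2, against 4.28 and 3.92 in flu (2.58 ± 0.29). Of 15 genes of endoplasmic reticulum stress and further chaperones 2 were higher and 6 lower. ATERDJ2B, of the protein import machinery of that compartment, was higher (1.39 ± 0.24), while BZIP60 (-0.59 ± 0.11) and BZIP28 (-0.57 ± 0.1), factors of the unfolded protein response, were lower. Of 14 further auxin genes 2 were higher and 2 lower, and IAA20 read 7.98 and 7.87 in fc2, against 5.55 and 5.82 in flu (2.24 ± 0.13). The homeobox gene HAT2 was lower (-1.04 ± 0.12). Of 10 cell division genes 1 was lower, the kinase AUR1 (-0.3 ± 0.1), and none higher. Of 5 genes of pattern-triggered immunity 1 was higher and 1 lower, WRKY22 and WRKY53.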
